A study of Glycine max with 20 samples.

Results

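Ribosome footprints of the early soybean seed coat (SC25 FP) were compared with control RNA of the same tissue (SC25 CT) to ask which annotated gene classes carried more or fewer ribosomes than their RNA level alone would give. The SC25 tissue came from Glycine max cv. Williams plants of a greenhouse, from seeds of 25 to 50 mg fresh weight whose coats were dissected away from the cotyledons and frozen. Many beans were ground for each extract. For SC25 FP, ribosome-protected fragments were made with micrococcal nuclease and isolated on a spin column. For SC25 CT, total RNA of the powder was broken up chemically. In both, fragments of 26 to 34 nt were selected and ribosomal RNA was reduced with a kit before sequencing. SC25 FP and SC25 CT had 2 biological replicates each. The members were the primary transcript models (the splice variant numbered 1 of each gene) that reached 10 counts when the 4 libraries were added up, which were 29962 of 55912 primary models. The other 25950 had too few counts to be tested. For comparison, the mid-stage seed coat (SC100, seeds of 100 to 200 mg) and the cotyledon of seeds as young as those of SC25 (C25, 25 to 50 mg) also had 2 FP and 2 CT libraries each, made in the same way.

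A ribosome that translates an mRNA shields a short stretch of it from nuclease, so the density of footprints relative to control RNA describes how heavily a transcript is loaded with ribosomes. The seed coat is maternal tissue around the embryo. It passes sugars and amino acids to the cotyledons, expands by loosening its cell walls, makes flavonoids, and is green while young. Proteins of its plastids and mitochondria come in part from the genomes of those organelles and are made on organelle ribosomes, and in part from nuclear mRNAs read by cytosolic ribosomes. Some cDNA models of the nuclear assembly are annotated like organelle genes, and reads of organelle RNA that match such a model exactly would be counted there. Where the reads on these models came from was not tested.

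The total counts were 9098942 and 7205928 in SC25 FP, against 32562521 and 9115248 in SC25 CT. Models over 5000 RPKM (counts per kilobase of cDNA, scaled to library size, here on library totals) in any SC25 library numbered 51, splice variants included. They held 83.2% and 91.5% of the SC25 FP counts, against 69.7% and 58.3% of the SC25 CT counts, which left 1530034 and 611117 FP counts for all other models, against 9860743 and 3801691 CT counts. The detection floor, set at 3 counts on 1 kb of cDNA, was 0.361 and 0.861 TMM-scaled RPKM in SC25 FP, against 0.0831 and 0.163 in SC25 CT. Here TMM-scaled RPKM is the same unit on library sizes scaled by edgeR's trimmed mean of M values, and such floors cover counting error only. Low models are therefore measured less well in FP than in CT. On log2 counts scaled to library size the FP libraries had a Pearson correlation of 0.743 with each other over the 29962 members, and the CT libraries 0.680. FP 2 correlated more closely with CT 2 (0.856) than with FP 1. FP 1 also correlated more closely with CT 2 (0.771) than with CT 1 of its own replicate number (0.705) or with FP 2.

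One control library stood apart. The 19 seed storage protein models, which are glycinins, conglycinins, a lectin and Kunitz trypsin inhibitors that cotyledons make in bulk, summed to 32.9 and 21.6 TMM-scaled RPKM in SC25 FP, against 335 in SC25 CT 1 and 10.2 in SC25 CT 2. In C25 the same sum was 5125 and 3323 in FP, against 2317 and 2258 in CT. Of the 19 models, 18 had their highest SC25 level in CT 1, at a median of 36.9 times the level of CT 2. The part that this storage RNA plays in the differences below was not tested, and values without CT 1 are given beside the called models that rest on it.

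The seed coat label held against its markers. Of 17 models for seed coat peroxidase and for flavanone 3-hydroxylase, dihydroflavonol 4-reductase and leucoanthocyanidin dioxygenase, enzymes on the way to anthocyanins and proanthocyanidins, 14 had counts enough for a level, and these summed to 418 and 235 in SC25 FP, against 369 and 186 in SC25 CT. Both C25 CT libraries were near 0 for this list, at 0.957 and 0.910. The peroxidase Glyma.09G022300.1 had 43.7 and 37.2 TMM-scaled RPKM in SC25 FP, against 46.0 and 31.1 in SC25 CT, and was at 0 and 0.0238 in C25 CT. C25 FP 2 carried a marker sum of 120 where C25 FP 1 had 1.43, so a comparison with C25 is also given without that library. In whole tissue, fewer cells of a type and less RNA per cell cannot be told apart.

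**Figure D1:**
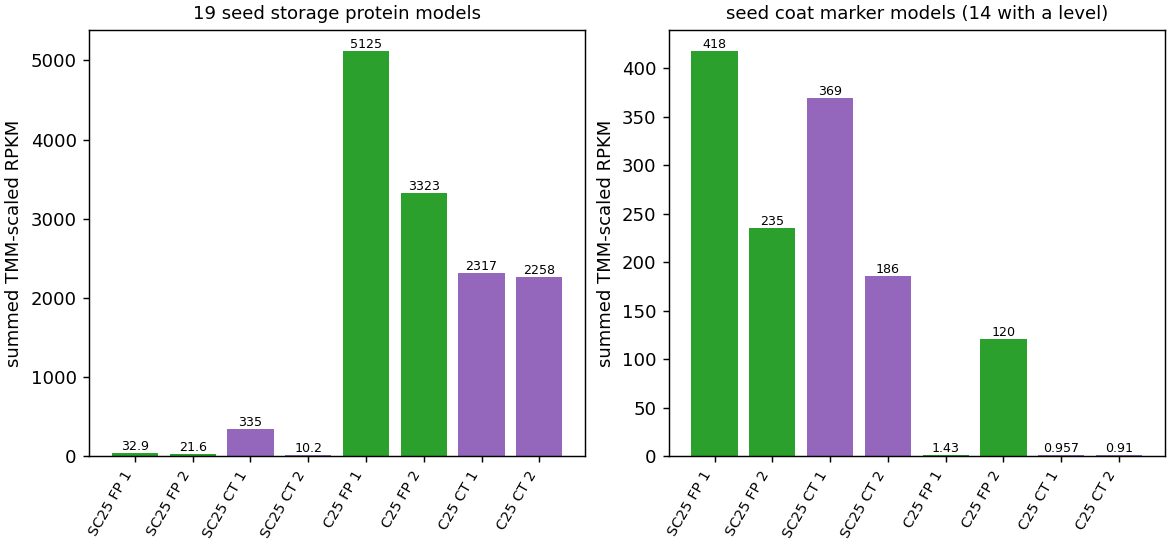
Summed TMM-scaled RPKM of 19 storage protein models (left) and the 14 seed coat marker models with a level (right) in each SC25 and C25 library, FP in green and CT in purple, both axes linear from 0. Storage RNA in SC25 CT 1 reached 335 where the other SC25 libraries had 10.2 to 32.9, and C25 FP 2 had a seed coat sum of 120.

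The models called different were few and were all lower in FP. In the quasi-likelihood test of edgeR, with p-values adjusted after Benjamini and Hochberg over 54964 models and a limit of 0.05, 15 of 29962 members (0.0501%) were lower and 0 (0%) were higher in SC25 FP than in SC25 CT. At an unadjusted p under 0.05 there were 1210 lower and 144 higher members. DESeq2 also called 15 lower and 0 higher, of which 7 were among edgeR's 15 (5 unannotated models, the zinc knuckle and the pentatricopeptide repeat model described below). The powder for FP and CT was divided from 1 ground sample, and the labels number the replicates alike. With the replicate number as a block, 97 members (0.324%) were lower and 11 (0.0367%) higher, and the 97 took in all 15. Not all of the 97 are separate, because a read that fits several models is counted at each. Among them, Glyma.12G036300.1 and Glyma.06G023800.1 had nearly the same counts in each SC25 library (192635 and 192634 in CT 1). The median log2 fold change of all members was −0.15 (−0.08 with the block).

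The number of calls depended on single libraries. Without CT 1 there were 11 lower and 0 higher members, and without CT 2 there were 1884 lower and 1043 higher. Without FP 1 edgeR called 0 in either direction (138 lower and 57 higher at an unadjusted p under 0.05), and without FP 2 it called 5 lower and 0 higher. In these fits the lone library of its kind was taken to vary like the others. The common dispersion, a measure of spread between replicates, was 0.452 without the block and 0.210 with it.

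Of the 15 called members, 4 were glycinins, annotated as RmlC-like cupins, and these rested on SC25 CT 1. Glyma.13G123500.1 had 0.737 and 0.196 TMM-scaled RPKM in SC25 FP, against 31.7 in CT 1 and 0.443 in CT 2 (log2 fold change −4.93 ± 0.77 SE, adjusted p = 9.43e-06). Glyma.19G164900.1, at −3.65, and Glyma.03G163500.1 and Glyma.10G037100.1, at −3.09 and −3.11, had the same shape, with 15.3 to 23.7 in CT 1 and 0.339 to 0.404 in CT 2. DESeq2 did not call any of the 4 (adjusted p = 0.998 for each). All 4 turned to positive values when CT 1 was left out, to 0.27, 1.30, 1.81 and 1.43 in the order named. In pair 2 alone, where both libraries are low in storage RNA, 16 of the 18 storage models tested had FP above CT, while all 18 had FP below CT in pair 1. Several pair 2 ratios rest on very few counts. Glyma.01G095000.1 had 1 count in FP 2 against 3 in CT 2, Glyma.10G246500.1 1 against 4, and the lectin Glyma.02G012600.1 3 against 9. Near-identical storage models can also share reads, so the 16 are not separate observations.

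A zinc knuckle, a zinc finger and a pentatricopeptide repeat model were low in both FP libraries against both CT libraries. The zinc knuckle (CCHC-type) model Glyma.19G256500.1, of a family that binds nucleic acids, had 36.8 and 73.3 TMM-scaled RPKM in SC25 FP, against 1310 and 762 in SC25 CT (log2 fold change −4.23 ± 0.99 SE, adjusted p = 0.0481). The C2H2 and C2HC zinc finger model Glyma.19G228900.1 had 0.795 and 6.96 in SC25 FP, against 9.18 and 94.8 in SC25 CT (−3.81 ± 0.69 SE, adjusted p = 5.93e-04, and 0.998 in DESeq2). Here the replicate numbers differed nearly as much as the kinds of library, and FP was below CT within each number by −3.39 and −3.75. Glyma.13G206000.1, annotated as pentatricopeptide repeat 336, of a family that binds organelle RNAs, exceeded 5000 RPKM on library totals in at least 1 library. It had 54.5 and 329 TMM-scaled RPKM in SC25 FP, against 4060 and 5141 in SC25 CT (−4.59 ± 1.04 SE, adjusted p = 0.0361).

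The remaining 8 called members had no annotation. Their cDNA lengths had a median of 267 bases, against 1834 over all members, and a range from 201 to 1038. Their TMM-scaled RPKM ran from 2.16 to 28.1 in FP 1 and 9.57 to 85.3 in FP 2, against 26.9 to 358 in CT 1 and 75.3 to 597 in CT 2. The log2 fold changes lay between −4.53 and −2.90. Leaving out CT 2, in the fit with no block, moved these models differently. Glyma.05G084400.1 went from −3.72 to −1.65 and Glyma.11G218300.1 from −2.90 to −1.48, while Glyma.06G225300.1 went from −3.20 to −3.82. The lowest log2 fold change with all 4 libraries was that of Glyma.20G208700.1, with 2.17 and 21.98 in SC25 FP, against 27.1 and 486 in SC25 CT (−4.53 ± 0.72 SE, adjusted p = 9.43e-06, and 0.998 in DESeq2).

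Both replicate pairs gave the same direction for 13 of the 15 called members, and 11 had a log2 ratio of at least 1 in size in each pair. For 11 of the 15, both FP libraries lay below both CT libraries. With the block, 92 of the 97 lower members had the same sign in both pairs and 78 passed the limit of 1 in each, and all 11 higher members had the same sign, 7 of them with at least 1 in each pair. All these members were called from the same 4 libraries. Agreement between their pairs is therefore partly fixed by the call and is no separate check. The 5 lower members with a positive pair 2 ratio included the glycinins Glyma.03G163500.1 and Glyma.10G037100.1, the seed lectin Glyma.02G012600.1 and lipoxygenase 1 Glyma.13G347600.1, a seed lipid-oxidizing enzyme. The lipoxygenase had 0.339 and 1.04 TMM-scaled RPKM in SC25 FP, against 8.56 in CT 1 and 0.961 in CT 2. Without CT 1, in the fit with no block, the lectin stood at 1.78 and the lipoxygenase at −0.61 on the log2 scale, against −2.80 and −2.89 with it. Of the 97 lower members, 6 had a log2 fold change above 0 without CT 1 and 91 stayed below 0. The 6 were the 4 glycinins, the lectin and the unannotated Glyma.13G288100.1.

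Over all members the pairs shared little. The log2 ratio of FP over CT had a Pearson correlation of 0.072 between pair 1 and pair 2 across the 29962 members, and 53.8% of members had the same sign, a description across genes that share the same 4 libraries. It was 0.048 among the 13683 members of a mean CPM (counts scaled to library size) below 1, 0.36 among the 3071 from 5 to 20, 0.65 among the 442 from 20 to 100 and 0.72 among the 118 above that. The share with the same sign was 74.9% in the class from 20 to 100 and 83.1% above it. Ratios of the well-covered models went along with each other between the pairs more closely than those of the sparse ones. As a background, both FP libraries were below both CT libraries in 5215 members (17.4%) and above both in 3959 (13.2%).

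**Figure D2:**
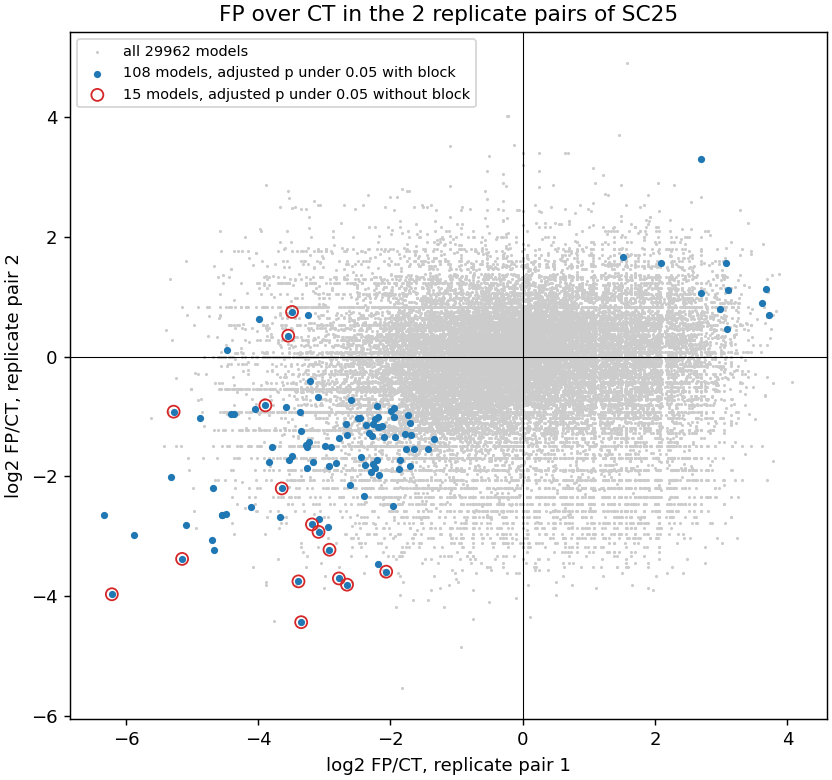
Each point is 1 of 29962 members, with the log2 ratio of FP over CT in replicate pair 1 on the x axis and in pair 2 on the y axis. Red circles are the 15 members called without the replicate block and blue points the 108 called with it, most of which lie in the lower left, where both pairs were below 0. The called members were picked on these same libraries.

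The group with the lowest footprint density was that of photosystem and cytochrome models of the kind encoded in the plastid genome. These proteins form the reaction centres of both photosystems and the cytochrome complex between them. Of 39 such models 37 were tested, and their median log2 fold change lay 1.23 below the median of all members. Relative to all members, the median was −1.64 in pair 1 and −0.90 in pair 2, and also below 0 for FP 1 against CT 2 (−1.79) and for FP 2 against CT 1 (−0.45). In 28 of the 37 (75.7%) both FP libraries were below both CT libraries, against the 17.4% of all members, and in 1 both were above. EdgeR without the block called 0 of the 37, where 18 were lower at an unadjusted p under 0.05, and DESeq2 called 0. With the block 11 were lower.

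Individual models of that group, chosen after their values were seen, show the size of the gap. The PsbA-type model Glyma.05G073600.1, for the D1 protein of photosystem II, had 28.8 and 27.6 TMM-scaled RPKM in SC25 FP, against 106 and 103 in SC25 CT (block log2 fold change −1.89 ± 0.37 SE, edgeR adjusted p = 4.21e-04). The groups of this model did not overlap and the replicates lay within a few percent of each other. The PsbD-type model Glyma.04G095000.1, for the D2 protein, had 13.5 and 16.1 in SC25 FP, against 58.4 and 41.4 in SC25 CT (−1.75 ± 0.38 SE, adjusted p = 0.00348). A model of the photosystem I core, PsaA/PsaB, Glyma.09G090100.1, had 10.3 and 10.8 in SC25 FP, against 32.8 and 31.9 in SC25 CT (−1.61 ± 0.41 SE, adjusted p = 0.0377). YCF9, a photosystem II subunit in Glyma.08G363500.1, had the lowest ratio of these, with 0.774 and 1.85 in SC25 FP, against 12.1 and 12.9 in SC25 CT (−3.41 ± 0.65 SE, adjusted p = 2.75e-04).

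Not all models of that group were low. The most abundant, the PsbC-type model Glyma.05G074900.1, had 589 and 787 TMM-scaled RPKM in SC25 FP, against 570 and 333 in SC25 CT, with an adjusted p of 0.757 with the block. PETG, a small cytochrome subunit in Glyma.12G232500.1, had 740 and 385 in SC25 FP, against 500 and 163 in SC25 CT, with an adjusted p of 0.608. The 2 other PsbA-type models named here were more abundant than the called one and did not pass with the block. Glyma.11G162200.1 had 178 and 350 in SC25 FP, against 459 and 415 in SC25 CT (block log2 fold change −0.81, adjusted p = 0.641), and Glyma.13G028200.1 had 157 and 187 in SC25 FP, against 448 and 391 in SC25 CT (−1.29, adjusted p = 0.139). Both had all FP values below all CT values. Another PsbC-type model, Glyma.11G114700.1, had 27.7 and 42.2 in SC25 FP, against 107 and 76.8 in SC25 CT, so models with 1 annotation differed. A read that aligned to several near-identical copies was counted at each, which makes the level of any 1 copy uncertain.

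Other classes that hold models of organelle type were also below all members in both replicate pairs. The NADH dehydrogenase and ATP synthase classes were not divided into organelle-type and nuclear models. Of 56 NADH dehydrogenase models, subunits of complex I and of its plastid relative, the median was 0.71 below that of all members (−0.85 in pair 1 and −0.53 in pair 2), both FP libraries were below both CT libraries in 25 (44.6%), and 3 were lower with the block. NADH dehydrogenase 5B, Glyma.17G185800.1, had 15.8 and 16.7 TMM-scaled RPKM in SC25 FP, against 43.0 and 48.5 in SC25 CT (block log2 fold change −1.49 ± 0.36 SE, edgeR adjusted p = 0.0228). The 49 organelle-type ribosomal protein models had a median 0.86 below (−0.73 and −0.80 in the pairs), with 19 (38.8%) below in both FP libraries and 1 lower with the block, the chloroplast ribosomal protein S4 model Glyma.01G153400.1 with 0.861 and 2.57 in SC25 FP, against 14.7 and 7.67 in SC25 CT. The 45 ATP synthase models had a median 0.26 below (−0.43 and −0.20), with FP 1 against CT 2 at 0.02, and 4 were lower with the block.

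All 3 models annotated plastid-encoded CLP P, the catalytic subunit of a plastid protease, were lower with the block. Glyma.20G048700.1 had 14.6 and 23.5 TMM-scaled RPKM in SC25 FP, against 72.7 and 59.9 in SC25 CT (−1.86 ± 0.43 SE, edgeR adjusted p = 0.0108). A ribulose-bisphosphate carboxylase model, Glyma.12G061600.1, of the enzyme that fixes CO2, had 3.64 and 18.1 in SC25 FP, against 30.9 and 51.2 in SC25 CT (−2.24 ± 0.44 SE, adjusted p = 4.28e-04). Its FP libraries differed more than those of PsbA. A Ycf2 model, Glyma.20G045200.1, had 33.7 and 51.2 in SC25 FP, against 170 and 124 in SC25 CT (−1.80 ± 0.37 SE, adjusted p = 0.00110).

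**Figure D3:**
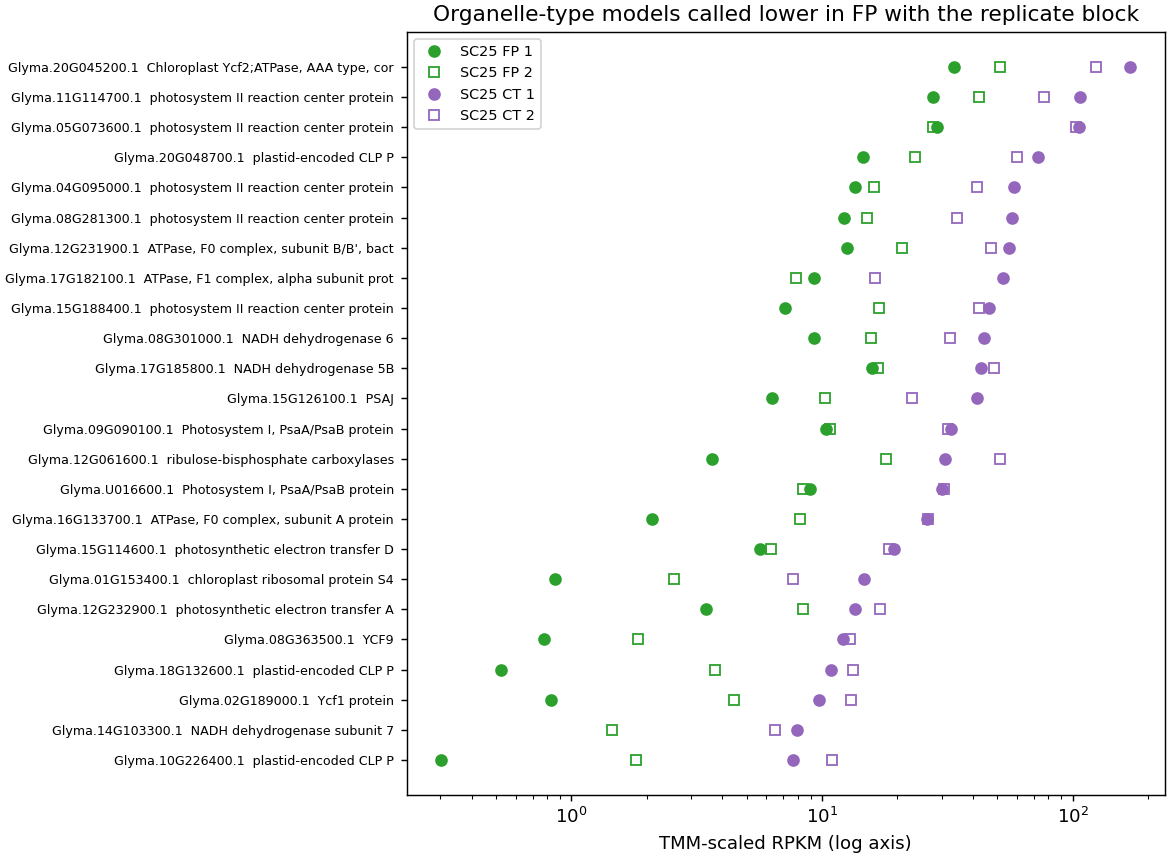
TMM-scaled RPKM (log axis) of 24 organelle-type models that were lower in FP with the replicate block, FP in green and CT in purple, replicate 1 as filled circles and replicate 2 as open squares. In all 24, which were picked by this contrast, both FP values lie left of both CT values, and 1 FP value of 0 (Glyma.14G103300.1, FP 1) is not drawn.

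The 11 members higher with the block were of mixed function. They included a xyloglucan endotransglucosylase/hydrolase 30 model, Glyma.09G208300.1, of enzymes that cut and rejoin cell wall xyloglucan, with 9.22 and 2.99 TMM-scaled RPKM in SC25 FP, against 0.619 and 1.82 in SC25 CT (block log2 fold change 2.43 ± 0.58 SE, edgeR adjusted p = 0.0187). The nodulin MtN21 /EamA-like transporter Glyma.20G094100.1, of a family whose known members export amino acids, had 4.52 and 4.05 in SC25 FP, against 0.465 and 1.31 in SC25 CT (2.47 ± 0.60 SE, adjusted p = 0.0242). An auxin-responsive family model, Glyma.03G088900.1, had 12.8 and 15.9 in SC25 FP, against 2.95 and 5.29 in SC25 CT (1.85 ± 0.40 SE, adjusted p = 0.00399). In these 3 both FP libraries were above both CT libraries. The 2 models annotated as orthologs of sugar beet HS1 PRO-1 2, Glyma.11G228100.1 and Glyma.18G029300.1, overlapped between the kinds of library, since CT 2 had 7.34 and 7.73 where FP 1 had 2.30 and 2.23. None of the 11 passed the limit without the block, and without CT 1 their log2 fold changes were −0.27 to 2.47.

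Of the 53 annotation classes described, 9 had a median above that of all members in each of the 4 pairings of an FP with a CT library, and 6 had a median below it in each, while 38 changed sign. The 2 replicate pairs alone gave the same sign in 37 classes and different signs in 16. Outside models with no annotation (8 lower) and pentatricopeptide repeat proteins (1 lower), 0 members of the other 51 classes were called without the block by edgeR or by DESeq2. At an unadjusted edgeR p under 0.05, these classes held 31 higher and 192 lower members, added up over the classes. Over all 29962 members there were 144 higher and 1210 lower, so an excess of lower members was not special to the classes. The class values are therefore descriptions.

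Serine carboxypeptidases and 2 groups of wall and chromatin proteins had the highest medians. The 64 serine carboxypeptidases tested, of 97, are hydrolases that trim peptides or, as acyltransferases, build secondary compounds. Their median was 0.72 above all members (0.92 in pair 1 and 0.36 in pair 2), and in 21 (32.8%) both FP libraries were above both CT libraries, against the 13.2% of all members, while in 0 both were below. The most abundant, serine carboxypeptidase-like 20 in Glyma.09G249500.1, had 89.1 and 47.3 TMM-scaled RPKM in SC25 FP, against 62.0 and 34.4 in SC25 CT, so FP was above CT within each pair while the groups overlapped.

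The 41 fasciclin and arabinogalactan proteins, glycoproteins of the cell wall and membrane, had a median 0.67 above (0.38 and 0.83 in the pairs), and 14 (34.1%) had both FP libraries above both CT libraries, with 1 the other way. Arabinogalactan protein 1, Glyma.08G177200.1, had 15.4 and 34.9 in SC25 FP, against 11.99 and 14.5 in SC25 CT. The 79 core histones, which package the DNA of the nucleus, had a median 0.60 above (0.37 and 0.70), with 28 (35.4%) above in both FP libraries and 1 below. A histone model, Glyma.11G241800.1, had 24.3 and 20.9 in SC25 FP, against 17.8 and 13.2 in SC25 CT. The most abundant histone model, Glyma.11G241700.1, overlapped, with 45.8 and 30.9 in SC25 FP, against 52.5 and 20.98 in SC25 CT.

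Wall-loosening proteins had medians above 0 in the 4 pairings. The 35 expansins, which loosen the wall without cutting it, stood 0.47 above all members (0.41 and 0.26). Of them, 9 (25.7%) were above in both FP libraries and 2 (5.7%) below, against 13.2% and 17.4% of all members. Expansin A2, Glyma.03G035800.1, had 44.9 and 20.3 in SC25 FP, against 17.1 and 17.6 in SC25 CT (log2 fold change 0.92 ± 0.61 SE, edgeR adjusted p = 1.00), a difference of no more than the spread between replicates. The 35 xyloglucan endotransglucosylases stood 0.34 above (0.24 and 0.51), and 8 (22.9%) were above in both FP libraries and 5 (14.3%) below.

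The 66 ER folding and glycosylation proteins had a median 0.38 above (0.47 and 0.31), with 16 (24.2%) above in both FP libraries and 4 below. Calreticulin 1b, an ER calcium-binding chaperone in Glyma.20G098400.1, had 43.1 and 27.3 in SC25 FP, against 32.4 and 20.9 in SC25 CT. The 65 lipid transfer and 2S albumin family members, small cysteine-rich proteins, stood 0.36 above (0.13 and 0.61), with 12 (18.5%) above in both FP libraries and 8 (12.3%) below, against 13.2% and 17.4% of all members. The most abundant of them, lipid transfer protein 1 in Glyma.01G132500.1, had 643 and 362 in SC25 FP, against 499 and 184 in SC25 CT. Of the others, the superfamily member Glyma.20G062700.1 had 37.7 and 32.5 in SC25 FP, against 15.5 and 15.02 in SC25 CT (1.20 ± 0.61 SE, edgeR adjusted p = 1.00). UDP-glycosyltransferases (106 models) and MADS-box factors (40 models) had medians 0.21 and 0.17 above. For UDP-glycosyltransferases FP 1 over CT 2 gave only 0.02, the very value of ATP synthase subunits, cellulose synthases and pentatricopeptide repeat proteins. The sign of that class therefore rests on a shared value near 0, and without FP 2 its median was −0.13.

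The other classes below all members in the 4 pairings were bHLH transcription factors (116 models, 0.31 below), leucine-rich repeat receptor kinases (233 models, 0.13 below) and the 3767 models with no annotation (0.12 below). Receptor kinases had only −0.05 in pair 1, and models with no annotation only −0.01 for FP 2 over CT 1. Without CT 2 the median of models with no annotation was 0.11. Pairing mattered more for other classes. NB-ARC disease resistance proteins, which sense pathogens, had 305 models with a median 0.64 below all members, with −0.63 and −0.46 in the pairs, and 87 (28.5%) had both FP libraries below both CT libraries. FP 2 against CT 1 gave 0.70, so the class did not hold in every pairing.

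WRKY factors, regulators of defence and stress, had 82 models that lay at 0.07 and 0.06 in the pairs, against −1.69 for FP 1 over CT 2 and 2.07 for FP 2 over CT 1. Replicates of 1 number resembled each other for this class more than libraries of 1 kind did. Flavonoid pathway enzymes (43 models) had −0.17 in pair 1 and 0.80 in pair 2. The 91 nuclear photosystem and light-harvesting proteins had 0.29 and 0.58 in the pairs, and FP 2 over CT 1 gave −0.37. Of them, 14 (15.4%) were above in both FP libraries and 0 below, against 13.2% and 17.4% of all members. Cytosolic-type ribosomal proteins (580 models) lay at 0.10 and 0.18 in the pairs, with 0.48 for FP 1 over CT 2 and −0.26 for FP 2 over CT 1.

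**Figure D4:**
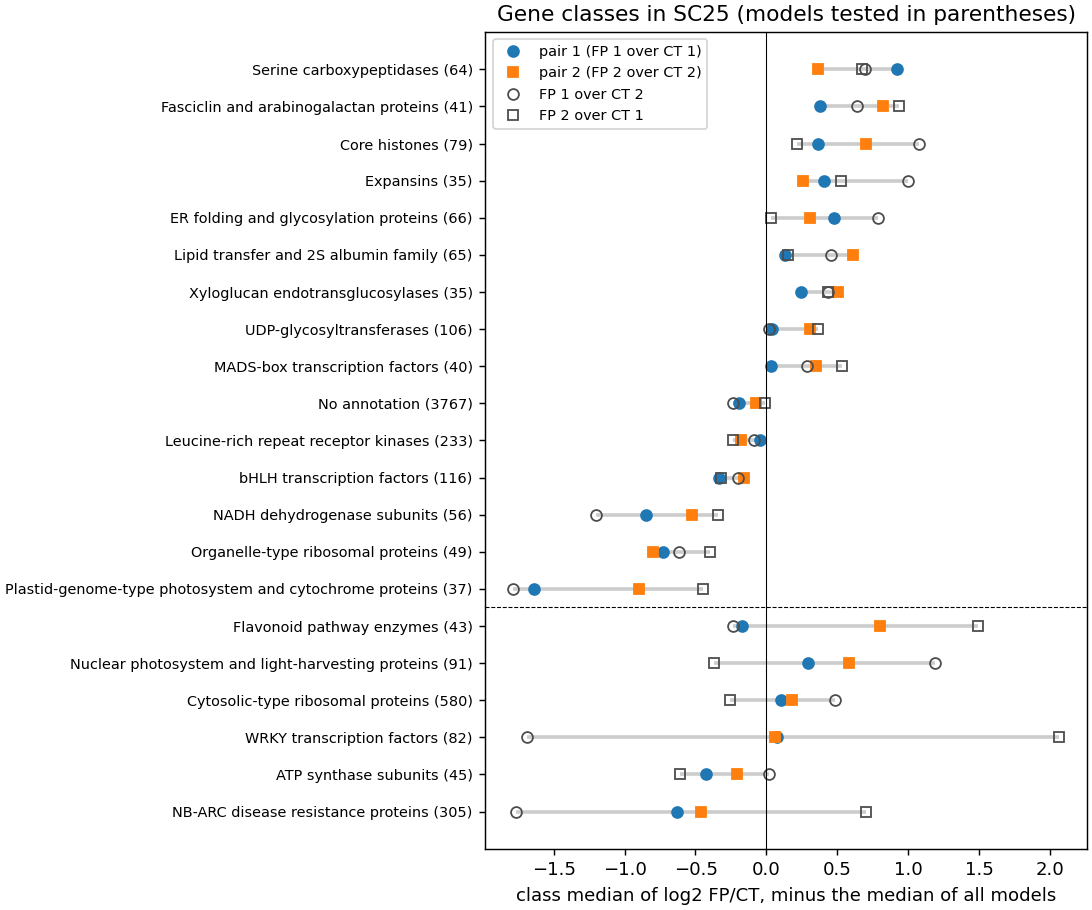
Median log2 ratio of FP over CT of 21 annotation classes, minus the median of all members, with the number of models tested in parentheses, for the replicate pairs (filled symbols) and the crossed pairings (open symbols), with grey lines from the lowest to the highest. Above the dashed line are the 15 classes with 1 sign in all 4, from serine carboxypeptidases (0.36 to 0.92 in the pairs) to plastid-genome-type photosystem and cytochrome proteins (−1.64 and −0.90), and below it are 6 classes with mixed signs.

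Translational efficiency (TE) divides the mean RPKM of FP by that of CT on library totals, neither taken below 0.1. It had a median of 0.413 over the members. TE exceeded 1 in 2397 members (8%) and was at most 0.1 in 814 (2.72%). These values depend on the scaling, since a few models held most of the FP counts. On TMM-scaled library sizes the median was 0.917, TE exceeded 1 in 13073 members (43.6%) and was at most 0.1 in 277 (0.924%). High TE, defined by a ratio over 1, an FP mean of 1 RPKM or more and an unadjusted edgeR p under 0.05, was met by 100 members (0.334%). Within pair 1, 96 of these had a TE above 1 on library totals, within pair 2, 20, and in both pairs 16. Such pair counts do not share a limit, because the TMM factors differed. They were 0.916 for FP 1 and 1.11 for CT 1, against 0.484 for FP 2 and 2.03 for CT 2. The median log2 ratio of the 100 was 2.555 in pair 1 and 1.109 in pair 2. In 86 of the 100, which were picked on these libraries, both FP libraries were above both CT libraries. At an adjusted p of 0.05, 0 of the 100 passed in edgeR and 0 in DESeq2, and 8 passed with the block. Very low TE, defined by a ratio no higher than 0.1, a CT mean of 10 RPKM or more and the same limit on p, was met by 65 members (0.217%), of which 42 had such a TE in pair 1, 55 in pair 2 and 32 in both. Of the 65, 33 had no annotation and 14 passed an adjusted p of 0.05 (44 with the block).

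Among primary models over 5000 RPKM on library totals there were 47, of which 26 had no annotation. They went in both directions, with log2 fold changes from −4.59 to 2.60 (29 below 0 and 18 above). Of the 47, 21 had both FP libraries below both CT libraries and 6 had both above, against 17.4% and 13.2% of all members. A level over the limit in any 1 SC25 library was enough to be among the 47. The most abundant, Glyma.01G139400.1, held 3.14% and 10.96% of the counts in SC25 FP, against 4.43% and 2.83% in SC25 CT. Glyma.U007200.1 held 20.3% and 13.9% in SC25 FP, against 8.27% and 1.96% in SC25 CT, and neither passed the limit (adjusted p = 1.00 in edgeR for both). The next 3, Glyma.U007400.1, Glyma.U007300.1 and Glyma.04G242600.1, had log2 fold changes of −1.36, 0.71 and 2.08. These 5 are models of 192 to 944 bases with no annotation. Glyma.13G116700.1, annotated aspartic proteinase A1, held the same share as Glyma.01G139400.1 in each SC25 library, so such shares can count 1 read more than once.

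The difference between SC25 and SC100 in the FP to CT ratio was tested as an interaction over 8 seed coat libraries. EdgeR called 0 higher (0%) and 0 lower (0%) of 33684 members, with 89 higher and 499 lower at an unadjusted p under 0.05, and DESeq2 called 0 in either direction. With the block 2 (0.00594%) were higher and 4 (0.0119%) lower. The 4 lower were the glycinins Glyma.13G123500.1, Glyma.19G164900.1 and Glyma.10G037100.1 and the unannotated Glyma.13G288100.1, in which SC25 CT 1 stands above SC25 CT 2. Without SC25 CT 1, in the fit with no block, their differences were −0.09, 0.77, 1.34 and −0.14 on the log2 scale in the order named, against −5.29, −4.17, −3.20 and −4.09 with it. Glyma.13G288100.1 had 1.27 and 1.22 in SC25 FP, against 22.9 in CT 1 and 0.758 in CT 2. The 2 higher were a GMC oxidoreductase, Glyma.05G050100.1, with 8.74 and 3.63 in SC25 FP, against 9.15 and 3.35 in SC25 CT, and with 0 and 0 in SC100 FP, against 1.37 and 0.178 in SC100 CT, and a histone model, Glyma.11G130900.1, with 22.4 and 15.1 in SC25 FP, against 8.55 and 5.63 in SC25 CT, and with 2.05 and 0 in SC100 FP, against 14.2 and 1.58 in SC100 CT.

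The same test against C25 called 0 higher (0%) and 0 lower (0%) of 36258 members in edgeR, with 432 higher and 1487 lower at an unadjusted p under 0.05, and DESeq2 called 0 higher and 9 lower. With the block 36 (0.0993%) were higher and 495 (1.37%) lower, and 26 and 33 when C25 FP 2 was left out. Lower here means that FP relative to CT was lower in SC25 than in C25. Among the lower ones were seed coat genes that were higher in C25 FP 2 than in the other C25 libraries, such as the peroxidase Glyma.09G022300.1 and a GDSL-like lipase, Glyma.16G029100.1, with 53.3 and 46.97 in SC25 FP, against 52.9 and 38.02 in SC25 CT, and with 0 in C25 FP 1, 16.4 in C25 FP 2 and 0 in both C25 CT libraries.

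The class medians of SC25 can be set beside those of the other tissues, each relative to the median of its own members. Of the 15 classes with 1 sign in SC25, 13 had that sign in both SC100 pairs and 15 in both C25 pairs. Some of these medians were 1 value shared by several classes. In C25 pair 1 MADS-box factors and class III peroxidases both lay at 0.10, and bHLH factors and models with no annotation at −0.25. In SC100 pair 1 the lipid transfer, xyloglucan endotransglucosylase and UDP-glycosyltransferase classes all lay at 0.53. NADH dehydrogenases and NB-ARC proteins both lay at −0.36 there. Whether models with few counts set such values was not tested. C25 pair 2 holds C25 FP 2, whose seed coat marker sum was 120, and class values without it are not given. Plastid-genome-type photosystem and cytochrome proteins, at −1.64 and −0.90 in the SC25 pairs, were at −1.21 and −1.03 in SC100 and at −1.70 and −1.91 in C25. Organelle-type ribosomal proteins, at −0.73 and −0.80 in SC25, were at −0.11 and −0.72 in SC100 and at −0.82 and −1.18 in C25. Core histones, at 0.37 and 0.70 in SC25, were at 0.05 and 0.67 in SC100 and at 0.72 and 0.78 in C25. No difference of a class between tissues was tested.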

How the data were processed

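Per the labels and the study's methods, the authors trimmed the reads of the libraries and aligned them with Bowtie version 1, without mismatches, to the cDNA models of the soybean assembly Wm82.a2. The deposited values are counts of alignments per model, 88515 models a library, without normalization and with replicates kept apart. A read that fits several models is counted at each. Footprints come from coding sequence and control fragments from the whole transcript, so a ratio over cDNA length also moves with the length outside the coding sequence.

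Groups came from the labels. Nothing says how plants or harvests were divided between the 2 biological replicates, so p-values measure the spread between these libraries. The members and gene lists were chosen with earlier results of these data known. Classes are word searches in the annotation of the tables. The main test was edgeR 4.0.16 (quasi-likelihood, TMM) without a block, 2-sided, in R 4.3.3, and DESeq2 1.42.0 was an alternative. Benjamini-Hochberg adjustment covered all 54964 models with at least 10 counts. SE is the fold change divided by the root of F. Pair ratios used a prior count of 2. On simulated counts at a dispersion of 0.05, 200 of 200 changes of 4 (log2) in this comparison were recovered with 4 false calls among 54964 models, and at the fitted dispersion of 0.452 1 of 200 was. Pairs are from the labels' replicate numbers and the methods, where an aliquot of 1 powdered sample gave the control RNA. As a check, the departures of FP and CT of 1 replicate number from the means of their kinds correlated at 0.266 over 29962 members. FP 1 nevertheless had a higher Pearson correlation with CT 2 (0.771) than with CT 1 (0.705). The libraries of a kind differed by more than sampling noise.

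The rule for named models was the largest called changes with 1 sign in both pairs (at least 100 counts, no library over 5000 RPKM), the 5 most abundant models, the marker models and, in each class, called members and the most abundant one. Models named from the block, and the other class examples, were chosen after their values were seen. Alternatives were library totals, other count filters, leaving out models over 5000 RPKM, primary models only, the block and each library left out. Python 3.11.15 with pandas 2.3.3 made the tables. No sequences or coordinates are given, because the gene table at hand matched 0 of the model names.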

Additional observations from a re-analysis of the deposited data

How the results depend on the processing

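The count of lower members (15) was 5 on library totals, 6 with no count filter, 0 with at least 10 counts in every library, and 0 to 1884 with a library left out. Chosen after seeing the data, the block with DESeq2 gave 59 lower and 7 higher members, without models over 5000 RPKM 70 and 9, and with at least 10 counts in every library 163 and 70, where the replicate block as planned gave 97 and 11. The count of higher members (0) was 0 to 1043 with a library left out. Lower members of 1 sign in both pairs (13) were 5 on library totals, 8 without models over 5000 RPKM, 6 with no count filter, 0 with at least 10 counts in every library and 92 with the block, and the higher ones 11 with the block. Leaving out a library breaks a pair, so that agreement has no value there. High TE (100) was 0 by adjusted p, 7 in each pair, 228 with the block and 21 to 996 with a library left out. Very low TE (65) was 14 by adjusted p, 27 in each pair, 16 on TMM-scaled sizes and 34 to 123 with a library left out. For SC100 the block gave 2 higher and 4 lower, and leaving out a library 0 to 14 and 0 to 380. For C25, DESeq2 gave 9 lower, library totals 2 higher and 30 lower, the block 36 and 495, the block without C25 FP 2 26 and 33, and leaving out a library 0 to 515 and 0 to 1288. The cause of these changes was not tested, except that the smaller fits hold fewer models or libraries. With a library left out, values that reversed were UDP-glycosyltransferases (−0.13 without FP 2, up to 0.36), models with no annotation (0.11 without CT 2, down to −0.37), and, each positive without CT 1, the glycinins Glyma.03G163500.1 (−4.13 to 1.81), Glyma.10G037100.1 (−4.12 to 1.43), Glyma.13G123500.1 (−6.33 to 0.27) and Glyma.19G164900.1 (−5.95 to 1.30). The 15 classes of 1 sign kept it in 133 of 135 alternatives. Of 127 alternatives for the 15 called members, 65 kept the direction and the call, 58 the direction only and 4 turned round. The depth of FP 2, with 611117 counts outside the most abundant models, limits what low models can show.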

Other observations

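Classes beyond those above had medians above that of all members in both pairs. Aquaporins, channels for water and small solutes, had 43 tested models and a median 0.39 above (0.35 in pair 1 and 0.43 in pair 2), with 11 (25.6%) above in both FP libraries and 1 below, and FP 2 over CT 1 gave −0.02. Proteasome subunits (78 models, 0.31 above), phenylpropanoid enzymes, which supply lignin and flavonoid precursors (27 models, 0.48 above), and sucrose cleavage and starch enzymes (37 models, 0.47 above) were likewise above in both pairs, with FP 2 over CT 1 at −0.13, −0.12 and −0.04 in that order. Tubulins and actins (62 models) had −0.003 in pair 1 and 0.26 in pair 2. Transcripts with known upstream open reading frames (20 models tested) lay at −0.91 and −0.10 in the pairs, and SWEET and sucrose transporters (33 models) at 0.42 and −0.35. EdgeR called 0 members of these classes with or without the block, and DESeq2 called 0, where edgeR had 3 higher and 4 lower at an unadjusted p under 0.05.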
